A study of Mus musculus with 6 samples.

Results

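The MYC, MAX and MXD network is described here in mouse bone marrow, through the 10 genes *Myc*, *Mycn*, *Mycl*, *Max*, *Mxd1*, *Mxd3*, *Mxd4*, *Mxi1*, *Mnt* and *Mlx*. They were chosen by symbol as the Myc family with its partners and antagonists, and all 10 were found among the 39179 genes counted. RNA-seq was done on 6 littermates, and HTSeq read counts per gene were used. The 3 *MxCDX2* mice (*RsCDX2::Mx1Cre*) carried both the *RsCDX2* knockin, a human *CDX2* sequence at *Rosa26* that Cre switches on, and *Mx1Cre*, in which the interferon-inducible *Mx1* promoter drives the Cre recombinase. The 3 control mice had an *RsCDX2*, an *Mx1Cre* and a wild type genotype, so that each control genotype rests on 1 animal. All 6 mice were 3 months old, were given poly(I:C) into the peritoneum 3 times at 10 µg per g, and were analysed 6 weeks later. The *Mx1* promoter is known to answer interferon in many cell types and not in blood cells alone. Whole marrow was used, in which fewer cells of a type and less RNA per cell cannot be told apart.

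MAX is a basic helix-loop-helix leucine zipper protein that pairs with each MYC and MXD protein, and the pairs bind the E-box, a short palindrome in DNA. MYC with MAX activates genes of growth and division, whereas the MXD proteins and MNT with MAX recruit the SIN3 corepressor to the same kind of site. MLX is a second hub that pairs with MNT, some MXD proteins and the glucose-sensing factors MLXIP and MLXIPL. In blood formation, MYC is known to be high in cycling progenitors, and MXD1 to rise as granulocytes mature and stop dividing.

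The letters of the E-box, CACGTG, which reads the same on both strands, were searched in RefSeq promoter windows (GRCm38.p6) from 250 bases before to 50 bases after each start site. They are shown because the network acts on this sequence and some members carry it at their own start sites. Of the 9 members matched in that table, all but *Myc*, 4 held an E-box, against 8.09% of 27025 genes with such windows. In the following 30-base stretches, the capitals mark the E-box.
*Max*, chr12:76962234-76962263, minus strand: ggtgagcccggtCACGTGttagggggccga
*Mlx*, chr11:101087238-101087267, plus strand: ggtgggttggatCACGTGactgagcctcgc
*Mnt*, chr11:74830789-74830818, plus strand: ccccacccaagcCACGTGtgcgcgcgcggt
*Mxd4*, chr5:34187912-34187941, minus strand: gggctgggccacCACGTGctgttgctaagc
The E-box began 3 bases before the start site in *Max*, 40 in *Mlx*, 123 in *Mnt* and 219 in *Mxd4*. The letters TTTAT, the core of sites for caudal proteins, were found on either strand in the windows of *Mxd1*, *Mxi1*, *Mycl* and *Mycn*, 4 of the 9 members, against 43.8% of all genes with windows. Of the members that fell in *MxCDX2* marrow *Max* alone held an E-box in its window. A match of letters is a description and was not tested as a binding site.

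Between 38646101 and 49899650 reads per mouse were counted on genes. Reads on the mouse gene *Cdx2* (the knockin is human) numbered 0 to 4 in control mice and 152 to 183 in *MxCDX2* mice. The test was edgeR's quasi-likelihood F-test, with Benjamini-Hochberg adjustment across the 15980 genes left by the filter on low counts. A gene passed the test with an adjusted p below 0.05, and was differentially expressed when its absolute log2 fold change was also above 1. Normalized counts are reads brought to one library size by TMM factors. The labelled tissue was checked by markers, all of which had reads. Summed markers of monocytes were 629.7 to 900 counts per 1000000 (CPM) in control and 4280 to 5776 CPM in *MxCDX2* mice, and those of promyelocytes 689 to 3710 CPM and 3795 to 3998 CPM. Erythroid markers were 4040 to 5254 CPM and 145 to 869 CPM, those of mature neutrophils 44260 to 68760 CPM and 18360 to 25580 CPM, and those of B cells 356 to 893 CPM and 75.2 to 243 CPM. The sums of dividing cell markers were 1966 to 3160 CPM and 1414 to 1921 CPM, of stromal markers 274 to 1046 CPM and 109.6 to 252 CPM, and of megakaryocyte markers 304 to 3056 CPM and 159 to 203 CPM. Progenitor markers (139.8 to 262 CPM and 162 to 178 CPM) and T cell markers (30.4 to 49.0 CPM and 15.6 to 32.2 CPM) overlapped between the groups. Single markers did not all follow these sums. Of the 4 promyelocyte markers 1 rose, with log2 fold changes between -0.31 and 2.32. Of the 4 progenitor markers 1 fell, with values between -2.19 and 0.91. That is 25% of each list, against 21.7% of all tested genes. Of the 4 megakaryocyte markers 1 fell (25%), and of the 3 stromal markers 1 fell (33.3%), though all had lower values. The wild type mouse stood apart within the controls, with the highest megakaryocyte sum (3056 CPM, against 339 and 304 CPM) and the lowest promyelocyte sum.

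All 10 members passed the filter and were tested. Transcripts of *Mxd1*, *Max*, *Mxi1* and *Mxd3* fell in *MxCDX2* marrow, no member rose, and the Myc family did not pass the test. These 4 of 10 compare with 21.7% of all tested genes that passed in either direction, 11.8% that fell and 9.91% that rose. Only *Mxd1* of the 10 was differentially expressed, against 13.6% of all tested genes, 9.03% lower and 4.59% higher. In the same 4 members the *MxCDX2* mice lay wholly below the control mice, and 42.1% of all tested genes did not overlap, 20.7% with *MxCDX2* below and 21.4% with *MxCDX2* above control. The median log2 fold change of the 10 members was -0.58, against 0.0021 over all tested genes. This value rested on the wild type mouse: with it left out the members' median was 0.06, and with any other mouse left out it lay between -0.57 and -0.51. The spread of single mice bears on these calls. With *MxCDX2* mouse 3 left out, 0 of the 10 members passed with edgeR (5 had an unadjusted p below 0.05), and only 1, *Mxd1*, passed without *MxCDX2* mouse 2, the *RsCDX2* mouse or the *Mx1Cre* mouse. With *MxCDX2* mouse 1 left out, 3 passed, and without the wild type mouse the same 4 did. The same 4 also passed in DESeq2 and limma voom with all 6 mice.

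**Figure D1:**
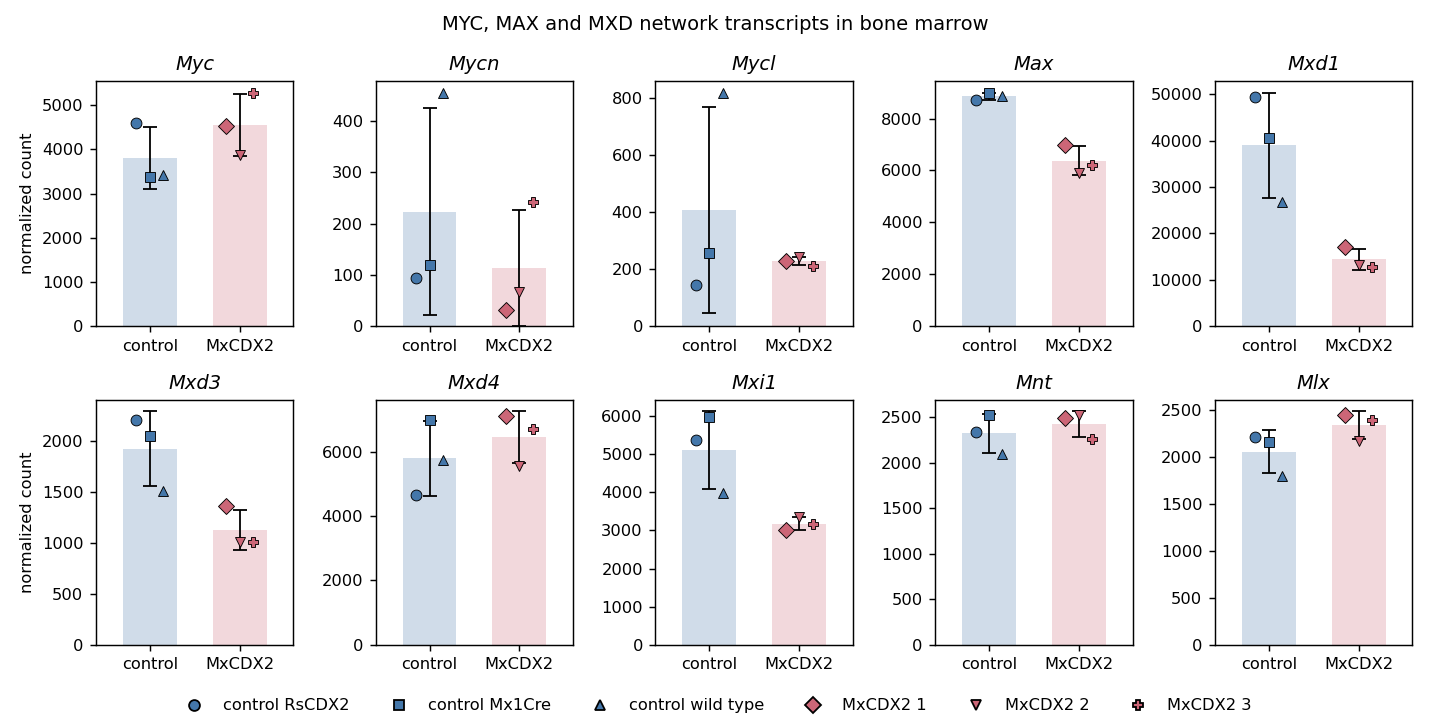
Normalized counts of the 10 members (vertical axis, from 0) in control and *MxCDX2* mice; bars are means, error bars are SD over 3 mice, and each symbol is 1 mouse. *Max*, *Mxd1*, *Mxd3* and *Mxi1* show *MxCDX2* mice below every control mouse, and the other 6 panels overlap.

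*Mxd1* encodes the antagonist MXD1, which binds MAX and recruits SIN3. Its normalized count was 49438, 40664 and 26870 in the *RsCDX2*, *Mx1Cre* and wild type control mice and 17038, 13217 and 12846 in *MxCDX2* mice 1, 2 and 3. The groups did not overlap, and the wild type mouse was the lowest of the controls. Control and *MxCDX2* mice averaged 38991 ± 11377 (SD, n = 3) and 14367 ± 2321 (SD, n = 3). *Mxd1* fell 2.71-fold (log2 fold change -1.44, SE 0.25, adjusted p = 0.00994, edgeR, where SE is the standard error). By mean level it stood above 99.0% of the tested genes, so its fall concerned an abundant transcript. The gene (ENSMUSG00000001156) spans chr6:86647042-86669161, minus strand (GRCm38). Its adjusted p was 0.0545 without *MxCDX2* mouse 3 and stayed below 0.05 in the other 5 fits that left out 1 mouse.

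Neutrophil markers, listed as mature, moved with *Mxd1*, and their part in its fall was not tested beyond the ratio given here. Of the 11 markers 8 fell, none rose, and the log2 fold changes lay between -2.41 and -0.35. *Retnlg* (-2.41, adjusted p = 0.00176) and *Ly6g* (-1.88, adjusted p = 0.00166) were among those that fell. Set against the summed CPM of the 11 markers, *Mxd1* stood at 15.8, 15.4 and 13.4 CPM per 1000 marker CPM in the control mice. The *MxCDX2* mice had 20.2, 11.4 and 15.4 CPM per 1000. Relative to this sum the groups thus overlapped, with a difference of 0.04 on the log2 scale. With 3 mice per group this does not show that they were alike. This ratio was chosen after the values were seen, and its sum gives most weight to the most abundant markers. The list also holds granule genes made before neutrophils are mature, so the ratio is not a level per mature neutrophil. In *MxCDX2* mice the single markers averaged 18.9% (*Retnlg*) to 78.5% of their control means, and *Mxd1* 36.8%. The ratio thus depends on which markers are summed.

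**Figure D2:**
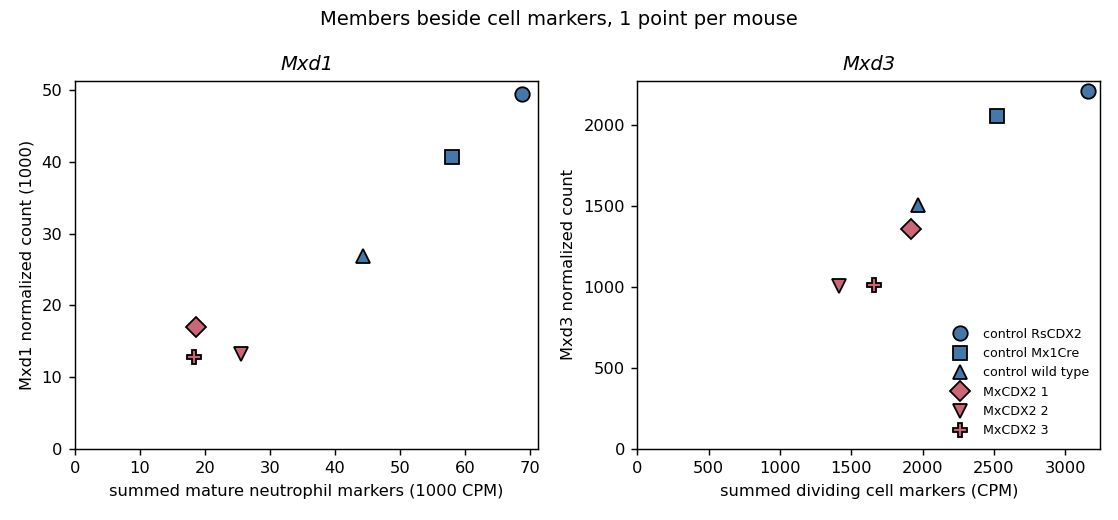
Each point is 1 mouse: *Mxd1* normalized count (in units of 1000) against summed mature neutrophil markers (in units of 1000 CPM), and *Mxd3* normalized count against summed dividing cell markers (CPM), all axes from 0. *MxCDX2* mice lie below and to the left of every control mouse in both panels, with *MxCDX2* mouse 1 next to the wild type mouse in the *Mxd3* panel.

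*Mxi1* and *Mxd3* encode further antagonists of the MXD family, and MXD3 is known for its expression in dividing cells. *Mxi1* (chr19:53310518-53375810) had 5376, 5987 and 3997 normalized counts in control mice and 3015, 3353 and 3163 in *MxCDX2* mice. It fell 1.61-fold (log2 fold change -0.69, SE 0.16, adjusted p = 0.0254, edgeR). Both groups were narrow enough to stay apart, with the wild type mouse nearest to the *MxCDX2* mice. *Mxd3* (chr13:55325168-55329823) had 2213, 2055 and 1508 normalized counts in control mice and 1358, 1008 and 1013 in *MxCDX2* mice. It fell 1.71-fold (log2 fold change -0.77, SE 0.20, adjusted p = 0.0346, edgeR). The lowest control mouse was again the wild type mouse, close to *MxCDX2* mouse 1. With 1 mouse left out, *Mxi1* passed only without the wild type mouse, and *Mxd3* only without that mouse or without *MxCDX2* mouse 1.

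Dividing cell markers also moved: 3 of the 4 fell, *Mki67* among them (-0.93, adjusted p = 0.0375), and *Top2a* had a log2 fold change of -0.12 (adjusted p = 0.741). Relative to the 4 markers summed, *Mxd3* stood at 15.4, 17.9 and 16.9 CPM per 1000 marker CPM in control mice and at 15.6, 15.7 and 13.5 in *MxCDX2* mice. The groups overlapped on that scale (log2 difference -0.17), which does not show that they were alike. This ratio, too, was chosen after the values were seen.

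*Mxd4* and *Mnt* encode the remaining antagonists, and neither passed the test. *Mxd4* had 4677, 7012 and 5751 normalized counts in control mice and 7136, 5574 and 6719 in *MxCDX2* mice (log2 fold change 0.16, SE 0.17, adjusted p = 0.569, edgeR). *Mnt*, the antagonist known to be present in resting and dividing cells alike, had 2339, 2528 and 2097 normalized counts in control mice and 2489, 2520 and 2263 in *MxCDX2* mice. *Mnt* did not pass (log2 fold change 0.06, SE 0.11, adjusted p = 0.730, edgeR). In both genes the mice of the groups were intermingled. The antagonists therefore did not share a direction of measured change, with values from -1.44 for *Mxd1* to 0.16 for *Mxd4*.

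The hubs of the network had different values. *Max* (chr12:76937269-76962201), the partner of every MYC and MXD protein, had 8709, 9000 and 8856 normalized counts in control mice and 6989, 5905 and 6220 in *MxCDX2* mice. The control mice lay within a narrow band above all *MxCDX2* mice. *Max* fell 1.39-fold (log2 fold change -0.47, SE 0.10, adjusted p = 0.0186, edgeR), the smallest change among the members that passed. With 1 mouse left out it passed only without the wild type mouse or *MxCDX2* mouse 1, at log2 fold changes between -0.54 and -0.42 over the 6 fits. *Mlx* had 2207, 2159 and 1792 normalized counts in control mice and 2447, 2171 and 2397 in *MxCDX2* mice (log2 fold change 0.19, SE 0.12, adjusted p = 0.312, edgeR). *MxCDX2* mouse 2 lay below the *RsCDX2* mouse, so the groups overlapped.

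*Myc* (chr15:61985391-61990374), the activator that is common to dividing blood cells, had 4604, 3364 and 3424 normalized counts in control mice. The *MxCDX2* mice had 4521, 3882 and 5284. The *RsCDX2* control mouse was above *MxCDX2* mice 1 and 2, and the groups overlapped. Control and *MxCDX2* mice averaged 3798 ± 699 (SD, n = 3) and 4563 ± 702 (SD, n = 3), and the difference did not pass (log2 fold change 0.27, SE 0.17, adjusted p = 0.317, edgeR). With 1 mouse left out, the log2 fold change lay between 0.15 and 0.44.

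*Mycn* and *Mycl* encode the other MYC proteins and had few reads. *Mycn* had 94.6, 120.2 and 456 normalized counts in control mice and 31.8, 66.6 and 242 in *MxCDX2* mice (log2 fold change -0.98, SE 0.89, adjusted p = 0.482, edgeR). *Mycl* had 144, 258 and 820 normalized counts in control mice and 228, 242 and 212 in *MxCDX2* mice (log2 fold change -0.84, SE 0.60, adjusted p = 0.366, edgeR). In both genes the wild type mouse was far above the other controls, as it was in the megakaryocyte marker sum. It was also the highest control in the stromal sum (1046 CPM, against 593 and 274 CPM) and the progenitor sum (262 CPM, against 154 and 139.8 CPM). *MxCDX2* mouse 3, the highest of its group in *Mycn* and the lowest in *Mycl*, had the highest stromal sum of that group (252 CPM, against 198 and 109.6 CPM). Its megakaryocyte sum (203 CPM, against 188 and 159 CPM) and its promyelocyte sum were the highest as well. Of the *RsCDX2* and *Mx1Cre* mice, the *RsCDX2* mouse had the higher stromal, megakaryocyte and progenitor sums but the lower *Mycn* and *Mycl* counts. The part of any of these cells in the values was not tested. With the wild type mouse left out, the log2 fold changes were 0.10 for *Mycn* and 0.19 for *Mycl*. The direction of each thus rested on the wild type mouse.

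**Figure D3:**
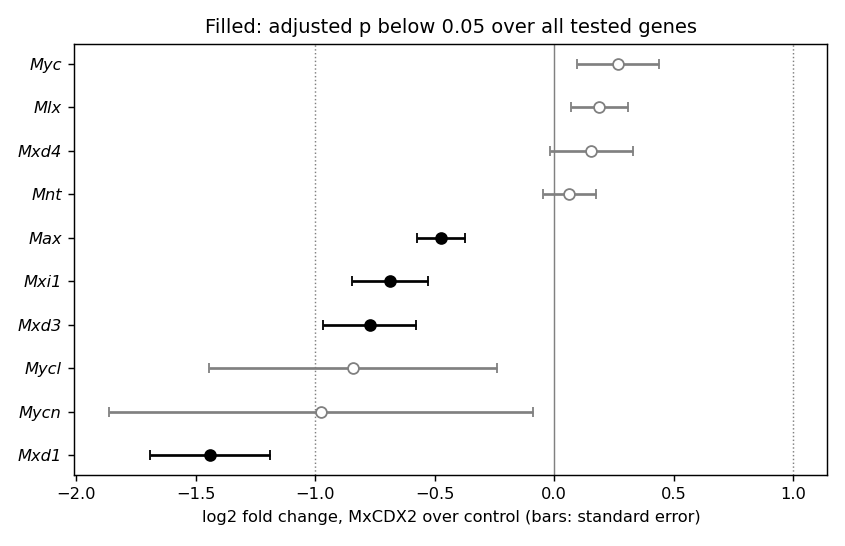
Log2 fold change of each member in *MxCDX2* over control mice (horizontal axis) with its standard error, ordered from the highest to the lowest; filled points passed the test at an adjusted p below 0.05 over all tested genes and dotted lines mark -1 and 1. *Mxd1* at -1.44 is the one filled point beyond -1, and *Mycn* and *Mycl* have the widest bars.

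Some members share exonic sequence with a gene on the opposite strand in GENCODE M21. *Mlx* shares 385 bases (19.3% of its exons) with *Psmc3ip*, *Mxd4* 514 bases (6.06%) with an antisense gene, *Mxd3* 105 bases (4.43%) with *Prelid1*, and *Mxi1* 194 bases (2.84%) with a gene that had no reads. The libraries were stranded, but the strand setting of the counting was not given in the sources used here, so reads of these stretches may not be told apart. *Max*, *Mxd1* and the Myc family share none.

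Levels were compared between genes as TMM-scaled reads per kilobase of exon per 1000000, since longer transcripts give more reads. By mean level in control mice *Mxd1* was the highest at 121 ± 35.4 (SD, n = 3), followed by *Max* at 54.1 ± 0.89 and *Myc* at 30.7 ± 5.66. No control mouse had these members in another order, and their ranges did not touch. *Mlx* (22.6), *Mxd3* (17.9), *Mxi1* (16.5) and *Mxd4* (15.1) followed with ranges that overlapped from each to the next, then *Mnt* (11.03), *Mycl* (2.22) and *Mycn* (1.49). In *MxCDX2* mice *Mxd1* stood at 44.7 ± 7.22, *Max* at 38.94 ± 3.41 and *Myc* at 36.9 ± 5.68 (SD, n = 3), with overlapping ranges. In these mice the first 3 places were not set apart, and *Myc* exceeded *Max* and *Mxd1* in *MxCDX2* mouse 3 alone.

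The share of each member in the summed level of all 10 shows the same values within each mouse, free of library scaling. *Mxd1* made up 46.4%, 41.7% and 34.2% of the network's transcripts per kilobase in control mice and 24.8%, 22.7% and 20.2% in *MxCDX2* mice. *Myc* made up 11.3%, 8.98% and 11.3% in control mice and 17.2%, 17.4% and 21.6% in *MxCDX2* mice. *Mlx* and the antagonists *Mxd4* and *Mnt* also had higher shares without overlap. They averaged 7.74%, 5.25% and 3.80% in control mice and 13.05%, 8.49% and 5.87% in *MxCDX2* mice. Shares of one whole move together, so these higher shares accompany the lower share of *Mxd1* and do not show more RNA of *Myc* or the others. The share of *Max* overlapped between the groups, at 16.1% to 22.1% and 19.2% to 20.03%.

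**Figure D4:**
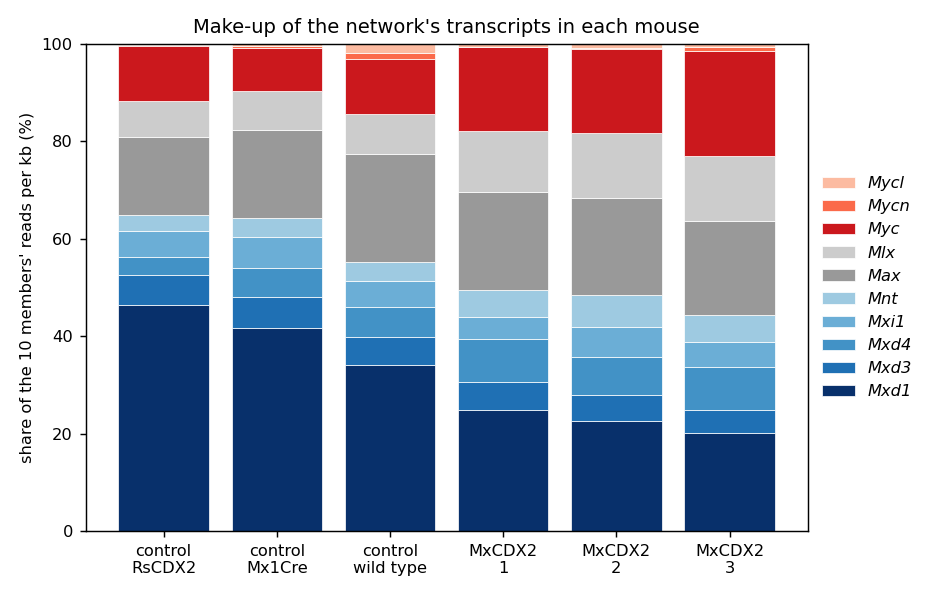
Stacked bars give the share (percent, 0 to 100) of each member in the summed reads per kilobase of the 10 members, 1 bar per mouse; blues are antagonists, greys *Max* and *Mlx*, reds the Myc family. The *Mxd1* block spans 34.2% to 46.4% in control mice and 20.2% to 24.8% in *MxCDX2* mice.

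The antagonists *Mxd1*, *Mxd3*, *Mxd4*, *Mxi1* and *Mnt* together were set against the Myc family within each mouse, since both compete for MAX. The ratio of their summed levels per kilobase was 5.55, 6.63 and 3.84 in control mice and 2.78, 2.64 and 1.93 in *MxCDX2* mice. Every *MxCDX2* mouse was below every control mouse, and the geometric mean of the ratio was 2.16-fold lower (log2 difference -1.11). No p is given for a sum over the members, and an exact test of 3 mice against 3 could not go below 0.10. With *Mxd1* left out of the antagonists, the ratio was 1.58, 2.33 and 1.47 in control mice and 1.38, 1.40 and 1.05 in *MxCDX2* mice. The log2 difference was -0.47, and the groups did not overlap but nearly touched, at the wild type mouse and *MxCDX2* mouse 2. *Mxi1* and *Mxd3*, which fell, remain in this sum, so neither ratio is a result apart from the calls of single members. The summed Myc family overlapped between the groups, with 38.7, 29.4 and 35.2 reads per kilobase per 1000000 in control mice and 38.1, 33.2 and 45.5 in *MxCDX2* mice. Antagonists and Myc family together stood at 4.76, 4.08 and 3.15 times the level of *Max* in control mice. In *MxCDX2* mice they stood at 3.36, 3.35 and 3.51 times, and these ranges overlapped.

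Genes around the network were grouped in lists by role. Of the other partners of MAX and MLX, *Mga*, a large MAX partner, had 4514 ± 398 (SD, n = 3) normalized counts in control and 5547 ± 697 (SD, n = 3) in *MxCDX2* mice (log2 fold change 0.30, adjusted p = 0.140, edgeR). *Mlxip*, which encodes the glucose sensor MondoA, had a log2 fold change of 0.35 (adjusted p = 0.372). *Mlxipl*, its relative in liver and fat, had 0 to 10 reads per mouse and was not tested. With edgeR 0 of these 2 tested genes passed, 0 had an unadjusted p below 0.05, and 0 passed with DESeq2 or voom.

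Of 14 subunits of the SIN3 corepressor, 1 rose and 1 fell, 14.3% against 21.7% of all tested genes, with a median log2 fold change of 0.01. *Arid4b* had 2889, 2792 and 2669 normalized counts in control mice and 2074, 1956 and 2005 in *MxCDX2* mice, a fall of -0.47 on the log2 scale (adjusted p = 0.0145). *Sap30* rose by 0.60 (adjusted p = 0.0452), and with any 1 mouse left out its adjusted p was at least 0.0576. Of 13 MYC cofactors, *Kat2a*, a histone acetyltransferase, rose by 0.39 (adjusted p = 0.0288), and the other 12 did not pass, a share of 7.69% called. Of 11 genes that act on the stability of MYC protein, *Trpc4ap* rose by 0.59 (adjusted p = 0.0166) and *Btrc* fell, 18.2% of the list. *Btrc*, which encodes the beta-TrCP subunit of a ubiquitin ligase, had 2940, 3140 and 2269 normalized counts in control mice and 1104, 806 and 869 in *MxCDX2* mice (log2 fold change -1.59, SE 0.18, adjusted p = 0.00288, edgeR). Leaving out any 1 mouse kept *Btrc* past the test.

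Genes that MYC is known to activate were counted in 4 lists of 63 genes in all, of which 2 rose and 6 fell. That is 12.7% against 21.7% of all tested genes, and the median log2 fold change was 0.03. Of 24 genes of ribosome biogenesis, *Utp20* alone passed, with a rise of 0.35 (adjusted p = 0.0404), and the 24 lay between -0.24 and 0.41. Of 12 genes of translation and folding, 0 passed with edgeR, 1 had an unadjusted p below 0.05, and 1 passed with DESeq2 and voom. That gene, named after its value was seen, was *Eif4a1*, an RNA helicase of translation initiation (0.40, adjusted p = 0.0513 with edgeR). Those lists contain nucleolar and protein-making genes often used to read MYC activity, and that activity was not tested here.

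Of 19 metabolic targets, 4 fell and 1 rose, 26.3% against 21.7% of all tested genes, so the share called was near that of all genes. *Odc1*, the first enzyme of polyamine synthesis, had 16925, 18940 and 14155 normalized counts in control mice and 5100, 4083 and 4705 in *MxCDX2* mice (log2 fold change -1.85, SE 0.15, adjusted p = 0.00156, edgeR). Every *MxCDX2* mouse was far below every control mouse. *Slc16a1*, a lactate transporter, fell by 1.58 (adjusted p = 0.00662) and *Slc7a5*, a carrier of large neutral amino acids, by 1.18 (adjusted p = 0.00196) on the log2 scale. Leaving out any 1 mouse kept these 3 genes past the test. The remaining calls, named after their values were seen, were *Mthfd1*, an enzyme of folate metabolism (-0.77, adjusted p = 0.00404), and *Hk2*, a hexokinase (0.89, adjusted p = 0.0315). Erythroid markers fell over the same mice, all 6 of them with log2 fold changes between -3.60 and -3.34, and their part in these values was not tested.

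Of 8 cell cycle targets 2 fell, 25% against 21.7% of all tested genes. Lower values were measured in 7 of the 8, against 7968 of all 15980 tested genes. *Ccne1*, the cyclin of the entry into S phase, had 3789, 3522 and 3123 normalized counts in control mice and 1541, 795 and 1224 in *MxCDX2* mice (log2 fold change -1.55, adjusted p = 0.00695, edgeR). *E2f2* fell by 0.79 on the log2 scale (adjusted p = 0.0184), and with 1 mouse left out it passed only without the wild type or the *Mx1Cre* mouse. The fall of *Ccne1* held in all 6 such fits. In the same mice 3 of 4 dividing cell markers and 6 of 6 erythroid markers fell, and their part in these values was not tested.

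Among 6 genes that MYC is known to repress, 1 rose and 1 fell, 33.3% against 21.7% of all tested genes (9.91% higher and 11.8% lower). *Cdkn2b*, which encodes the cell cycle inhibitor p15, had 7.67, 6.95 and 13.7 normalized counts in control mice and 29.7, 40.2 and 93.1 in *MxCDX2* mice (log2 fold change 2.501, SE 0.57, adjusted p = 0.0242, edgeR). It had 6 to 107 reads per mouse and did not pass without *MxCDX2* mouse 3, the *RsCDX2* mouse or the *Mx1Cre* mouse. *Gadd45a*, a stress-response gene, had 2511, 2348 and 2132 normalized counts in control mice and 843, 586 and 590.2 in *MxCDX2* mice (log2 fold change -1.79, adjusted p = 0.00212). With DESeq2 3 genes passed, the other being *Cdkn1a*, the inhibitor p21, which had a log2 fold change of 1.34 (adjusted p = 0.0771) with edgeR.

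Of 5 genes that MLX is known to activate with its partners, *Fasn*, which makes fatty acids, rose by 0.46 on the log2 scale (adjusted p = 0.0278) and *Pklr* fell. These 2 of 5 are 40% of a short list, against 21.7% of all tested genes. *Pklr*, the pyruvate kinase of red cells and liver, had 1732, 1766 and 1812 normalized counts in control mice and 237, 51.9 and 63.5 in *MxCDX2* mice (log2 fold change -3.92, adjusted p = 0.00692, edgeR). Without *MxCDX2* mouse 1 the log2 fold change of *Pklr* was -4.93. The erythroid markers, between -3.60 and -3.34, fell in the same mice, and their part in the value was not tested. *Txnip* and *Arrdc4*, targets often used to read MLXIP, did not pass, and the activity of MLXIP was not tested.

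**Figure D5:**
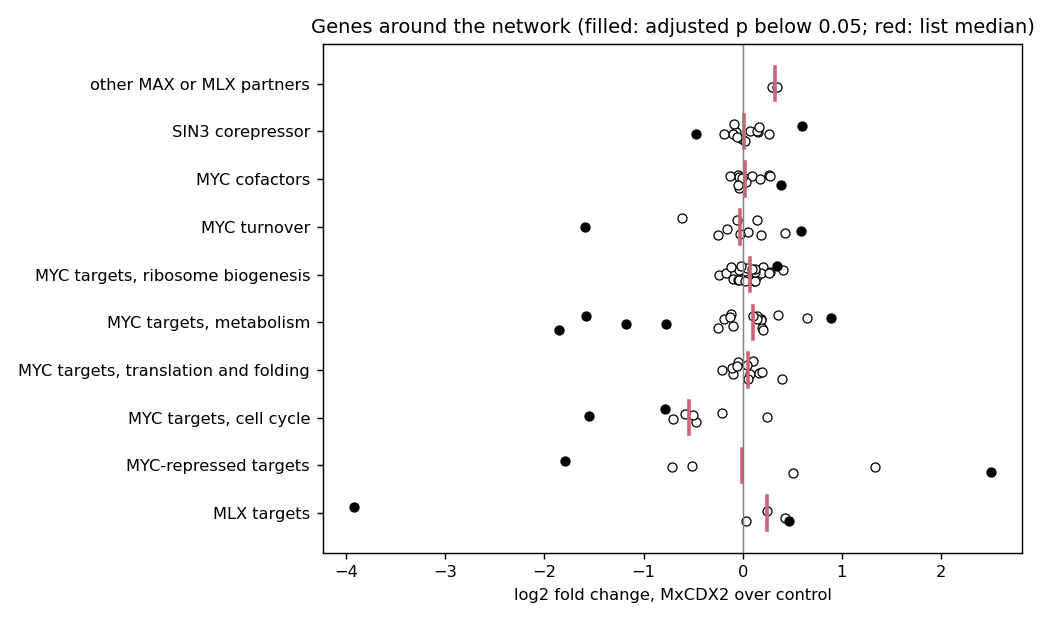
Log2 fold change (horizontal axis) of each tested gene of the 10 lists around the network; filled points passed the test, open points did not, and red lines are list medians. Points of the ribosome biogenesis and translation lists lie close to 0, while *Odc1*, *Slc16a1*, *Ccne1*, *Btrc* and *Gadd45a* lie between -1.85 and -1.55 and *Pklr* at -3.92.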

How the data were processed

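Counts came from mouse bone marrow libraries, 3 *MxCDX2* and 3 control mice grouped by the labels. Per the labels and the methods, the authors aligned reads with STAR (2.5) to GRCm38 and deposited raw counts per gene from HTSeq (0.6.1), without normalization. Symbols, positions and exon lengths were from GENCODE M21, where 37607 of 39179 identifiers matched. HTSeq's classes for reads on no gene (9.22% to 14.1% of each file) and on several genes (2.99% to 3.16%) were left out.

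The test used edgeR 4.0.16 under R 4.3.3 (TMM, default filterByExpr, glmQLFit and glmQLFTest), in place of the DESeq2 of the methods. Standard errors were derived from the F statistic. Alternatives were DESeq2 1.42.0, limma 3.58.1 (voom), DESeq2's size factors, total counts, TMM without the 10 most abundant genes, no filter beyond 1 count, at least 10 counts in every sample, and each mouse left out in turn. Ratios are given as values with no p, since an exact permutation test of 3 mice against 3 cannot go below 0.10. The fits were tested on simulated data. No mice of a group had counts within sampling noise of each other.

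The members and lists were chosen with earlier results of these data known. Named are all members, 3 further partners, and up to 3 genes per list with the largest change among those that passed without overlap. Further genes are said to be named after their values were seen, and up to 2 genes per marker list are named. The strand setting of HTSeq is not given in the sources used here. Counting error is small at these depths except in genes with few reads, such as *Mycn*, *Mycl*, *Mlxipl*, *Cdkn2b* and some other genes of the lists. The spread between mice limits precision.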

Additional observations from a re-analysis of the deposited data

How the results depend on the processing

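No paired analysis was possible because the labels number the *MxCDX2* mice only, and each control mouse has a genotype of its own. The 7 fits with another tool, normalization or filter left the same 4 members past the test and *Mxd1* the only one differentially expressed. Total counts moved the median log2 fold change of all tested genes by 0.12. With 1 mouse left out, 1205 to 2406 genes were differentially expressed against 2177, 0 to 1 members were, 0 to 4 members passed the test, and 8 to 26 genes of the lists passed against 17. The lowest of each came without *MxCDX2* mouse 3. In these 6 fits, *Kat2a*, *Utp20* and *Fasn* passed only when the wild type mouse was left out, *Trpc4ap* only without 1 of the control mice, and *Arid4b* only without *MxCDX2* mouse 1, the *Mx1Cre* or the wild type mouse. *Mycn* lay between -2.18 and 0.10 and *Mycl* between -1.23 and 0.19, both above 0 only without the wild type mouse. The difference in log2 ratio of antagonists to Myc family lay between -1.33 and -0.93 with 1 mouse left out, and was -0.47 without *Mxd1* and -1.20 with *Mycn* and *Mycl* left out, an alternative added after seeing the data. *Utp20* did not pass with every gene of at least 1 count (adjusted p = 0.0676), *Mga* passed with total counts (adjusted p = 0.0294), and *Cdkn2b* was not tested with at least 10 counts in every sample. The cause was not tested. With 3 mice per group, the spread between mice limits these calls, also in *Mycn* and *Mycl*, whose direction rested on the wild type mouse. *Mycn*, *Mycl* and *Cdkn2b* had few reads as well.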
